A study of Mus musculus with 14 samples.

Results

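Knockout and wild-type mast cells were compared after coculture with fibroblasts, on 7 of the 14 arrays of the study: the 3 arrays titled as Pla2g3-/- cocultured cells and the 4 titled as Pla2g3+/+ cocultured cells. They were chosen by title alone. The cells began as BMMCs, immature mast cells derived from bone marrow by 4 to 6 weeks of growth in medium with IL-3. For coculture they were kept for 96 h with 100 ng/ml stem cell factor on a layer of fibroblasts of the mouse line Swiss 3T3, and the nonadherent cells were then harvested. Both genotypes carry the same strain label, which names C57BL/6 and 129Sv at N3, and knockout cells differ from wild-type ones in the labels only by the Pla2g3 allele. The labels do not say which part of the gene is deleted, nor whether replicate arrays stand for different mice or cultures, so each p-value sets a difference against a spread that may be technical. The harvest is said to be over 99% pure, and any RNA of the fibroblast layer that stayed in it was read on the same probes. The other 7 arrays hold BMMCs before coculture, 3 wild-type and 4 knockout, and entered the same fit.

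Mast cells mature under the influence of stem cell factor, which acts through the receptor Kit, and of neighbouring stromal cells. Maturing cells fill their granules with chymases, tryptases, carboxypeptidase A3 and histamine bound to heparin, and gain receptors for secretagogues. Pla2g3 encodes the secreted phospholipase A2 of group III, which releases fatty acids from phospholipids. Arachidonic acid set free in this way is turned into prostaglandins by the cyclooxygenases Ptgs1 and Ptgs2 and into leukotrienes by Alox5. Prostaglandin D2 is made by Hpgds in mast cells and by Ptgds in fibroblasts and acts on the receptor Ptgdr. The comparison asks how mast cells without the enzyme differ from wild-type cells once both have met fibroblasts. The probes of Ptgdr and Ptgds were too dim to be tested.

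The chymase genes of mast cells lie in a cluster on chromosome 14. The stretches of 250 bases before the start of 3 of these genes are shown because Mcpt1 and Mcpt4 varied together across the arrays and Cma1 did not. They come from RefSeq on GRCm38.p6. Capitals mark TGATAA, a sequence that GATA factors bind, and TATAAA, the TATA box, and both strands were searched.
Mcpt1, chr14:56017714-56017963, plus strand: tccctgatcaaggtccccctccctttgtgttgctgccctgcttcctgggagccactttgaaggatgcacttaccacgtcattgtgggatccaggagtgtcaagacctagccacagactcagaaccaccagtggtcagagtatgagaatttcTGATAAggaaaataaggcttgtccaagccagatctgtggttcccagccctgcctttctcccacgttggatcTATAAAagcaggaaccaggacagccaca
Mcpt4, chr14:56062311-56062560, minus strand: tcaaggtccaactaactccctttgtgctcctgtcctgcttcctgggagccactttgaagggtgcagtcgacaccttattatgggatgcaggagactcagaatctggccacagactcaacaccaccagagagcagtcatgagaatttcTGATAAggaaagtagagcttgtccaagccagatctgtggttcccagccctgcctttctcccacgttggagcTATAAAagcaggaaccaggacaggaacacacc
Cma1, chr14:55944676-55944925, minus strand: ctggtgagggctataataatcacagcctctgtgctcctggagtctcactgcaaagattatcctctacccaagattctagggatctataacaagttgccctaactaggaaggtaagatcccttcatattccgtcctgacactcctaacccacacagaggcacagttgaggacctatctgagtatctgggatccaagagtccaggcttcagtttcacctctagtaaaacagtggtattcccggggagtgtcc
Mcpt1 and Mcpt4 hold TGATAA at bases 99 to 94 and 103 to 98 before the start and TATAAA at bases 28 to 23 and 32 to 27. Cma1 holds neither in this window, and AGATAA, a related GATA sequence, was in none of the 3. Among 32851 mouse promoter windows of this length, 7.94% hold TGATAA, 12.4% TATAAA and 9.99% AGATAA. The longest run of bases shared by Mcpt1 and Mcpt4 is 53, and each shares at most 10 with Cma1. A match is a description of these letters and not of a bound site.

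A level is the log2 of a probe's signal minus that of its array's 75th percentile, and a difference is the knockout mean minus the wild-type mean on this scale. Values of the wild-type arrays are given in the order 1 to 4 and those of the knockout arrays in the order 1 to 3. On the 7 arrays, 18317 to 23023 probes, 44.5% to 55.9% of all, were well above background, and 0 to 2 spots were saturated. The number of arrays limits the precision. Slide 1 held knockout 1, slide 2 held wild-type 1 and knockout 2, slide 3 held wild-type 2 and 4, and slide 4, scanned on another date, held wild-type 3 and knockout 3. The genotype difference can therefore be read within slide 2 and within slide 4, with 1 array of each group.

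The targeted gene was read first. The Pla2g3 probe (chromosome 11, 3393221 to 3393280 on mm9) was at -4.35, -3.25, -4.14 and -2.22 on the wild-type arrays and at -3.22, -1.85 and -1.97 on the knockout arrays. The groups overlapped, with higher knockout levels, and 2 wild-type and 3 knockout arrays read the probe well above background. The difference was 1.15 (SE 0.54, limma adjusted p = 0.815), and the knockout array was the higher one within slide 2 and within slide 4. The deleted part of the gene is not in the labels, so this probe cannot check the genotype, and wild-type and knockout are the labels' words throughout. A like difference stood in BMMCs, at -3.75, -4.70 and -2.96 in wild-type and -1.43, -1.33, -1.64 and -1.96 in knockout cells.

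The arrays labelled wild-type 3 and knockout 3, both on slide 4, stood apart from the others of their label. Across genes, which are not independent replicates, wild-type 3 correlated with knockout 1 and 2 at 0.978 and 0.967 but with the other wild-type arrays at 0.895 to 0.916. Wild-type 1 correlated with wild-type 2 and 4 at 0.944 and 0.947, and wild-type 2 with wild-type 4 at 0.976. Knockout 1 and 2 correlated with wild-type 1, 2 and 4 at 0.907 to 0.933. Knockout 3 correlated with wild-type 1, 2 and 4 at 0.973, 0.921 and 0.933 and with knockout 1 and 2 at 0.916 and 0.913. C1qtnf12, a secreted protein of the C1q family, did not share this pattern. It was at 2.59, 3.31, 2.41 and 2.18 in wild-type and at 1.53, 1.24 and 1.69 in knockout cells, and at 3.48, 4.10 and 3.59 against 1.74, 2.60, 1.72 and 1.68 in BMMCs. Within each culture its levels followed the genotype label on all arrays, and the slide 4 pair lay with its own label. C1qtnf12 was named because its cocultured groups did not overlap. Its order on these arrays was therefore fixed by that choice and cannot check the labels of slide 4.

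Sex-linked RNA was not spread evenly over the groups. The Y-linked gene Ddx3y, an RNA helicase, was at 1.07, 1.18, 1.95 and 1.49 on the wild-type arrays and at -5.62, -6.37 and 2.02 on the knockout arrays. Xist, the RNA that coats the inactive X chromosome, was at 1.58, 3.41, -0.84 and 1.48 in wild-type and at 5.37, 5.59 and 1.15 in knockout cells. Y-linked signal was thus present on every wild-type array and on knockout 3, and absent on knockout 1 and 2. When both arrays of slide 4 are left out, Y-linked signal and genotype cannot be told apart. Xist was above background on all 7 arrays, including the 5 with Y-linked signal.

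No gene passed between knockout and wild-type cocultured cells. Of 16016 genes tested with limma, 0 had an adjusted p under 0.05 (0.0%), and the lowest adjusted p was 0.815. The contrast was between the 7 cocultured arrays, and the spread was estimated over all 14 arrays. At an unadjusted p under 0.05 stood 604 genes, 196 higher (1.22%) and 408 lower (2.55%) in knockout cells, a split that was 273 higher and 252 lower with median scaling and 1108 higher and 665 lower with normexp background correction. In 276 genes (1.72%) the 2 groups did not overlap, 114 with higher (0.712%) and 162 with lower levels (1.01%) in knockout cells. The number at an unadjusted p under 0.05 was 3171 without wild-type 3 and 3234 without knockout 3, against 1207, 182 and 216 without wild-type 1, 2 and 4 and 364 and 239 without knockout 1 and 2. Each of these omissions gave 0 genes at an adjusted p under 0.05. With the 7 cocultured arrays fitted alone in limma, 306 genes stood at an unadjusted p under 0.05, 66 higher and 240 lower. The lowest adjusted p of that fit was 0.97.

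The separate genes of lowest unadjusted p included matrix and secreted proteins among those lower in knockout cells, and none passed. Loxl2, a lysyl oxidase that crosslinks collagen, was at -2.17, 0.14, -2.04 and 0.27 in wild-type and at -2.71, -4.56 and -3.82 in knockout cells. Every knockout level lay below every wild-type one, and the difference was -2.74 (SE 0.62, unadjusted p = 0.00069, adjusted p = 0.815), with -2.39 within slide 2 and -1.77 within slide 4. Lama4, a laminin chain of basement membranes, was at -1.57, 0.76, -1.37 and -0.40 against -5.64, -4.30 and -1.83, a difference of -3.28 (SE 0.79). Hgf, hepatocyte growth factor, was at -2.96, 0.52, -2.60 and 1.09 against -4.12, -4.86 and -3.17, a difference of -3.06 (SE 0.84). In Loxl2, Lama4 and Hgf the highest levels were those of wild-type 2 and 4, both on slide 3, a slide that held no knockout array. All 3 genes were well above background on 4 of 4 wild-type arrays, but Lama4 and Hgf on 1 of 3 and Loxl2 on 2 of 3 knockout arrays.

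Regulators were also among the genes with lower levels. Satb1, a chromatin organizer, was at 2.46, 2.60, 1.35 and 2.92 in wild-type and at 0.35, -1.31 and 1.34 in knockout cells. The difference was -2.21 (SE 0.54), and -3.77 within slide 2 and -0.02 within slide 4. Map3k6, a stress-activated kinase, was at 2.18, 2.49, 1.29 and 3.14 against 0.76, 0.55 and 1.04, a difference of -1.5 (SE 0.36), and of -0.25 within slide 4. Slc16a7, a monocarboxylate transporter, kept its size on both slides, at -1.57 and -1.85, with levels of -2.17, -1.38, -1.99 and -1.33 against -2.62, -3.75 and -3.83. In Satb1, Map3k6 and Slc16a7 too the highest levels were those of wild-type 2 and 4 on slide 3. Dbn1, the actin-binding protein drebrin, was at -2.65, -2.0, -2.05 and -2.86 against -3.17, -3.40 and -3.57 and differed by -0.75 and -1.52 within the slides. Oc90, an otoconial protein related to phospholipase A2, and Patj, a polarity protein, differed by -1.61 (SE 0.49) and -1.25 (SE 0.38) at levels near background.

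Genes higher in knockout cells were separate as well, and none passed. Dock5, an activator of the GTPase Rac, was at 1.04, 0.71, 2.14 and 0.13 in wild-type and at 2.35, 2.42 and 2.33 in knockout cells, a difference of 1.36 (SE 0.37) and of 0.19 within slide 4. Mctp2, a calcium-binding membrane protein, had 0 of 4 wild-type and 3 of 3 knockout arrays above background and was at least 2.43-fold higher in knockout cells. Cap1, a regulator of actin filaments, was at 2.60, 2.0, 2.88 and 0.84 against 3.18, 3.84 and 4.11 and differed by 1.23 within each slide. Vegfc, the lymphatic growth factor, was at 5.02, 5.02, 5.02 and 4.97 against 5.86, 5.54 and 5.32, a difference of 0.56 (SE 0.20). The wild-type levels of Vegfc lay closer to each other than those of any knockout pair. Mysm1, a histone deubiquitinase, Ppp1r3f, a phosphatase subunit, Mrps27, a mitochondrial ribosomal protein, Cnot8, a deadenylase, and Tulp3, a ciliary transport protein, differed by 0.63 to 0.93. Mdh2, mitochondrial malate dehydrogenase, differed by 0.93 (SE 0.30) over only 3 wild-type and 2 knockout arrays, since wild-type 4 and knockout 3 had outlier spots.

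**Figure D1:**
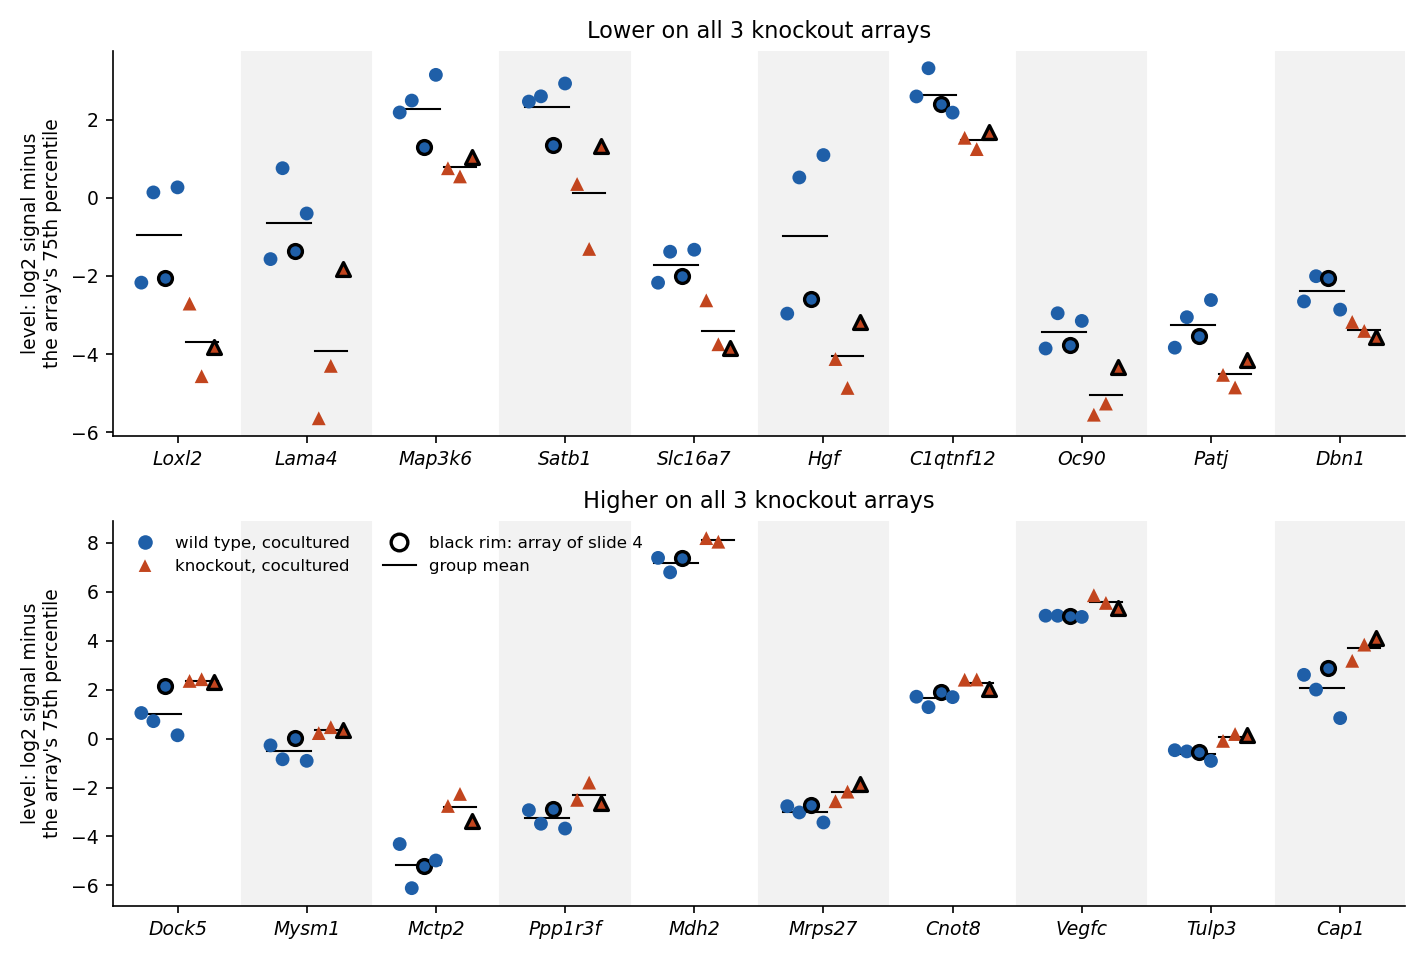
Levels of the genes of lowest unadjusted p whose knockout and wild-type cocultured groups do not overlap, on the log2 scale relative to the 75th percentile of each array. Blue circles are wild-type and red triangles knockout arrays, a black rim marks slide 4, and a line is the group mean. Each of Loxl2, Lama4 and Hgf shows its 3 knockout arrays below its 4 wild-type ones, and no gene passed at an adjusted p under 0.05.

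The genes whose groups were separate before coculture were followed into coculture. In BMMCs 0 of 16016 genes passed (0.0%, with 176 at an unadjusted p under 0.05), and the groups did not overlap in 677 genes (4.23%), 128 higher (0.799%) and 549 lower (3.43%) in knockout cells. Of those 128 and 549 genes, 3 and 11 were separate in the same direction in cocultured cells, and 0 in the opposite one, beside 0.712% and 1.01% of all genes separate on the high and low side there. The genes separate in both were Loxl2, Hgf, C1qtnf12, the glutathione transferase Gstm1, Abca13, Shisa4, Ssc5d and Habp4 on the low side and Vegfc, the kinesin Kifc3 and the tropomodulin Tmod4 on the high side, with 3 probes left unnamed. Abca13, a lipid transporter on the same chromosome as Pla2g3, was at -2.76, -2.20, -1.89 and -3.77 in wild-type and at -5.11, -4.05 and -4.27 in knockout cocultured cells. It was at least 2.43-fold lower in knockout cells, with 3 of 4 and 0 of 3 arrays above background. Of 97 genes measured within 10 Mb of the Pla2g3 probe, 1 was separate and higher and 2 were separate and lower in cocultured cells, beside 0.712% and 1.01% of all genes. The difference between the cocultured and the BMMC genotype differences passed in 0 of 16016 genes (0.0%, with 130 at an unadjusted p under 0.05).

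Of the chymase cluster, Mcpt1, Mcpt2, Mcpt4 and Cma2 varied widely between arrays, and not by label. Mcpt1, a chymase best known from mucosal mast cells, was at 4.61, 3.78, -6.36 and 3.93 on the wild-type arrays and at -4.77, -3.59 and 3.41 on the knockout arrays. Mcpt4, the main chymase of connective tissue mast cells, was at 8.10, 6.83, 1.54 and 7.24 against 2.96, 4.43 and 6.27. Both were high on wild-type 1, 2 and 4 and on knockout 3, and low on knockout 1 and 2 and on wild-type 3, and Mcpt1 was not well above background on wild-type 3 and 1 knockout array. The differences over all 7 arrays were -3.14 (SE 2.37) for Mcpt1 and -1.37 (SE 1.33) for Mcpt4, at an adjusted p of 0.815 or above. Within slide 2 the knockout array was lower by 8.20 in Mcpt1 and 3.66 in Mcpt4, and within slide 4 it was higher by 4.73 in Mcpt4 and higher in Mcpt1 by a size that cannot be given, the wild-type array being below background. Mcpt2 and Cma2, further members of the chymase cluster, ran the same way, with differences of -3.22 and -4.23 within slide 2 and of 4.01 and 4.41 within slide 4.

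The other chymase named, and several granule proteins beside it, lay close together on the 7 arrays. Cma1, a chymase, was at 9.13, 8.65, 8.39 and 8.81 in wild-type and at 9.31, 9.15 and 8.37 in knockout cells, a difference of 0.20 (SE 0.28). Cpa3, carboxypeptidase A3, differed by 0.18 (SE 0.26), the tryptase Tpsb2 by 0.07 (SE 0.38), the proteoglycan core Srgn by 0.13 (SE 0.29) and granzyme B (Gzmb) by -0.18 (SE 0.33). Gzmc, another granzyme, was the only member of the protease list with separate groups, at 2.0, 1.97, 1.90 and 2.05 against 2.60, 2.13 and 2.92. Over all genes 1.72% had separate groups. Prss34, a further protease of the list, was at -0.81, -1.68, -3.99 and -0.85 against -2.79, -4.76 and -1.86, and the groups overlapped. Of 20 listed members 19 were measured and 0 passed. Their median difference was 0.13, and -0.11 and -0.35 with quantile normalization and normexp, against 0.03, 0.01 and 0.09 over all genes.

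Heparin, which holds proteases and histamine in the granule, is built by enzymes of which 29 of 32 listed were measured and 0 passed. Ndst2, the sulfotransferase needed for mast cell heparin, was at 5.37, 4.84, 2.70 and 5.24 in wild-type and at 3.63, 4.08 and 4.96 in knockout cells. Its low arrays were those with low Mcpt4, and it differed by -1.29 within slide 2 and by 2.26 within slide 4. Extl3 and B3gat3, which start or extend the sugar chains, likewise changed sign between the slides, from -2.02 and -1.86 to 2.24 and 2.71. Chsy1, a chondroitin synthase, differed by 0.89 (SE 0.47).

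Of 10 measured histamine and serotonin genes, 1 was at an unadjusted p under 0.05 and higher in knockout cells, beside 1.22% of all genes. Hdc, which makes histamine, was at 5.77, 5.51, 6.24 and 6.53 in wild-type and at 6.13, 4.78 and 5.18 in knockout cells. The groups overlapped, and the difference was -0.65 (SE 0.50), with -0.99 within slide 2 and -1.05 within slide 4. Ddc, the decarboxylase of serotonin synthesis, was at 1.15, 2.33, 5.02 and 3.75 against 6.31, 6.43 and 3.71, a difference of 2.42 (SE 0.82, adjusted p = 0.815) that was 5.28 within slide 2 and -1.31 within slide 4. Tph1, the first enzyme of serotonin synthesis in mast cells, was at 8.54, 7.86, 8.38 and 8.26 against 9.16, 8.80 and 8.27. Of 13 listed genes 10 were measured.

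**Figure D2:**
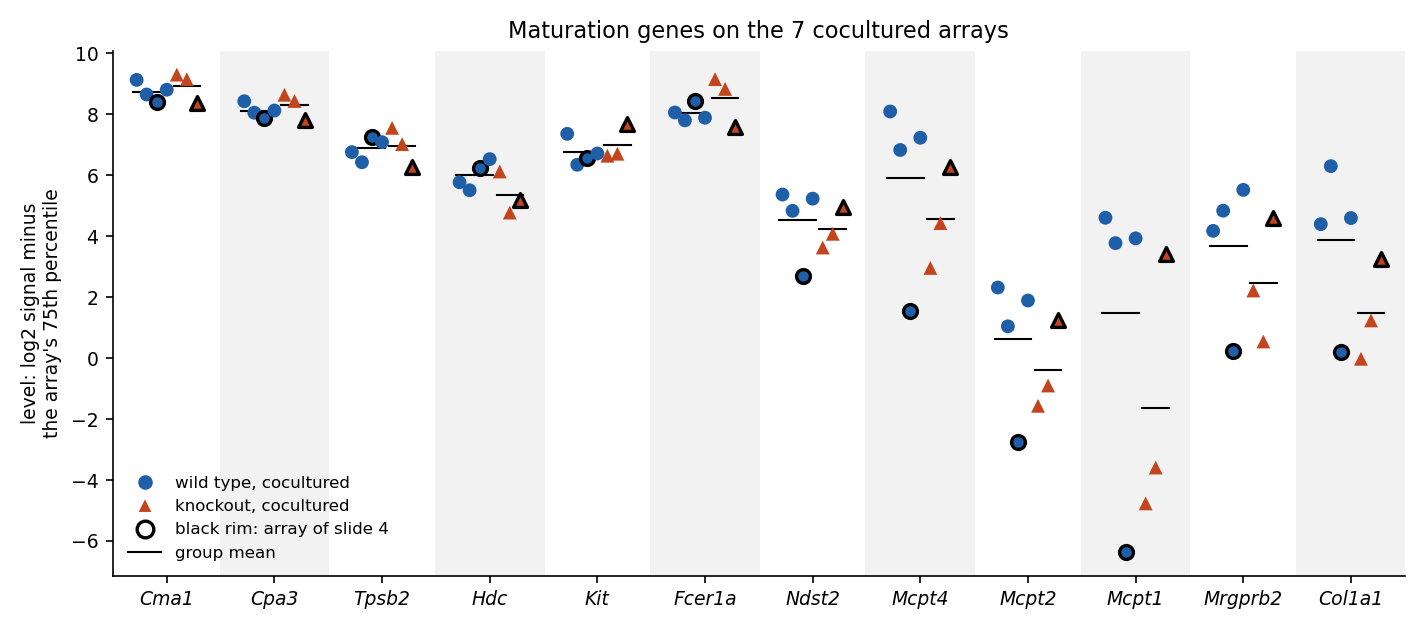
Levels of mast cell maturation and granule genes on the 7 cocultured arrays, on the log2 scale relative to the 75th percentile of each array. Blue circles are wild-type and red triangles knockout arrays, a black rim marks slide 4, and a line is the group mean. In Mcpt1 and Mcpt4 the rimmed circle lies among the low knockout arrays and the rimmed triangle among the high wild-type arrays, while Cma1 and Cpa3 lie close together.

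Phospholipase A2 and prostanoid genes had no member that passed on all 7 arrays. Pla2g4a, the cytosolic phospholipase A2, was at 1.98, 1.33, 3.47 and 0.81 in wild-type and at 2.83, 2.98 and 2.56 in knockout cells, a difference of 0.89 (SE 0.47). Hpgds, the hematopoietic prostaglandin D synthase, was at 2.86, 2.06, 2.86 and 2.45 against 3.09, 2.75 and 3.11, a difference of 0.43 (SE 0.26). Ptgs1, the constitutive cyclooxygenase, differed by -0.10 (SE 0.61) and Ptgs2, the inducible one, by 0.46 (SE 0.88), and both changed sign or size between slides, from -1.39 to 1.81 and from 0.09 to -2.72. Ptger4, a prostaglandin E2 receptor, was lower on average in knockout cells at -1.64, 0.02, 0.06 and 0.04 against -1.48, -2.28 and -0.96. Its difference was -1.20 (SE 0.44, adjusted p = 0.815), -0.64 within slide 2 and -1.03 within slide 4. Of 6 measured prostanoid receptors it was the only one at an unadjusted p under 0.05, beside 2.55% of all genes on the low side.

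Leukotriene C4 is made by Ltc4s from the product of Alox5 and leaves the cell through Abcc1. Ltc4s was at 0.27, -0.14, 0.40 and 0.23 in wild-type and at 1.73, 2.07 and -0.65 in knockout cells, high only on knockout 1 and 2. The difference was 0.86 (SE 0.51), 1.80 within slide 2 and -1.05 within slide 4. Abcc1 was at 4.79, 3.84, 4.85 and 3.92 against 5.31, 4.84 and 4.94, a difference of 0.67 (SE 0.28, adjusted p = 0.815), yet of only 0.05 and 0.08 within the slides. Its low levels were those of wild-type 2 and 4 on slide 3.

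Receptors that define mast cells were high in both groups. Kit was at 7.36, 6.35, 6.57 and 6.72 in wild-type and at 6.64, 6.71 and 7.68 in knockout cells, a difference of 0.26 (SE 0.30). Fcer1a, the IgE-binding chain of the IgE receptor, was at 8.06, 7.80, 8.43 and 7.89 against 9.16, 8.84 and 7.59, and Ms4a2, its beta chain, at 4.31, 4.51, 5.64 and 5.0 against 6.05 and 3.96 on knockout 1 and 3, with no value on knockout 2. All 3 genes, which define mast cells, were above background on every array read. Mrgprb2, the receptor through which mast cells answer basic secretagogues, was at 4.18, 4.84, 0.23 and 5.52 against 2.22, 0.55 and 4.61, low on the same 3 arrays as Mcpt4. Of 38 IgE receptor and Kit signalling genes, all measured, 0 had separate groups, beside 1.72% of all genes.

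Among the transcription factors of mast cells, Gata2, Gata1 and Mitf differed little between groups, while others varied widely between arrays. Gata2 differed by -0.33 (SE 0.37, knockout 2 without a value), Gata1 by 0.06 (SE 0.23) and Mitf, a driver of granule genes, by 0.24 (SE 0.29). Zfpm1, a partner of GATA factors, was at 3.32, 2.38, 0.44 and 2.88 in wild-type and at 0.55, 0.67 and 3.35 in knockout cells. Hes1, a target of Notch, was at -2.02, -1.49, -4.55 and -2.21 against -4.61, -5.11 and -2.10. In both genes wild-type 3 lay with knockout 1 and 2, and knockout 3 lay with wild-type 1, 2 and 4. Hes1 was well above background on only 3 of 4 wild-type and 1 of 3 knockout arrays. Of 24 listed factors 21 were measured, and 0 passed.

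Cytokines and chemokines had 0 members that passed, with 29 of 32 listed measured. Il6 was at 4.2, 4.32, 7.34 and 3.74 in wild-type and at 7.42, 7.51 and 3.53 in knockout cells. High arrays were wild-type 3 and knockout 1 and 2, also in Ccl3, which attracts leukocytes, and in Tnf, with differences of 3.40 and 2.80 within slide 2 and of -3.42 and -1.45 within slide 4. Cxcl12, a stromal chemokine, was low on these 3 arrays, at 1.63, 3.60, -3.86 and 1.73 against -3.84, -2.78 and 0.39. Cxcl1, a neutrophil attractant, was at 3.59, 6.24, 1.15 and 4.59 against 1.22, 2.13 and 2.57, a difference of -1.92 (SE 0.87, adjusted p = 0.815). Il13, a type 2 cytokine, was the only member with separate groups, at -4.07, -2.99, -3.29 and -2.89 against -4.76, -4.33 and -4.29. It was well above background on 4 of 4 wild-type and 1 of 3 knockout arrays, and its difference was -1.15 (SE 0.50). Over all genes 1.72% had separate groups.

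No gene of the stress and metabolic lists passed. Of 30 ATF4 and endoplasmic reticulum stress genes, all measured, 30 had a positive difference, beside 8389 of all 16016 genes. Their median was 0.50 against 0.03 over all genes, and -0.04 against 0.09 with normexp. Within slide 2 only 14 of the 30 and within slide 4 only 12 were higher on the knockout array, with medians of -0.09 and -0.57. Asns, asparagine synthetase and a target of ATF4, was at 6.96, 4.39, 6.53 and 3.97 in wild-type and at 6.72, 6.35 and 6.92 in knockout cells. Psat1, an enzyme of serine synthesis, was at 5.14, 2.34, 5.02 and 1.85 against 4.83, 4.81 and 5.07. In both genes wild-type 2 and 4 of slide 3 were low and the other 5 arrays lay together. The chaperone gene Sdf2l1 had another order, at 1.93, 1.51, 3.55 and 1.55 against 3.74, 3.63 and 0.53.

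Genes of the defence against oxidants included 3 on the high and 1 on the low side at an unadjusted p under 0.05. Over all genes these shares were 1.22% and 2.55%. Hmox1, heme oxygenase, was at 7.07, 3.91, 6.99 and 3.22 in wild-type and at 7.18, 7.03 and 6.85 in knockout cells, again low on wild-type 2 and 4 alone. Nqo1, a quinone reductase, was at 4.87, 0.45, 6.59 and 0.56 against 6.19, 6.53 and 4.27. G6pdx, the source of NADPH in the pentose phosphate pathway, differed by 0.92 (SE 0.40, adjusted p = 0.815). Gstm1, a glutathione transferase, had separate groups and lower knockout levels, at 6.57, 6.22, 5.90 and 6.49 against 5.76, 4.41 and 5.82. Its difference was -0.96 (SE 0.35), with -2.16 within slide 2 and -0.08 within slide 4. The median of the 20 genes was 0.62, and 0.09 with normexp, against 0.03 and 0.09 over all genes.

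Cell cycle and cholesterol genes had 0 members with separate groups, beside 1.72% of all genes. Pcna, the DNA polymerase clamp, was at 5.75, 5.74, 6.52 and 5.65 in wild-type and at 7.16, 7.10 and 4.94 in knockout cells. Its high levels lay on knockout 1 and 2 and wild-type 3. Of 35 cell cycle genes, 29 were higher on the knockout array within slide 2 and 9 within slide 4, and of 25 cholesterol genes 20 and 1. The medians over all 7 arrays were 0.40 for cell cycle genes, or -0.11 with normexp, and 0.52 for cholesterol genes, or 0.11 with normexp. Over all genes the median was 0.03, or 0.09 with normexp.

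Interferon response genes had a median difference of -0.41 over 27 measured of 28 listed, and below 0 with every scaling tried, but of -0.59 within slide 2 and 0.27 within slide 4. Iigp1, an immunity-related GTPase, was at 2.14, 2.45, -6.26 and 1.16 in wild-type and at -5.66, -4.36 and 0.78 in knockout cells. Ifit3 was at 2.44, 0.21, -6.27 and -1.53 against -5.55, -6.16 and 0.85. Neither was well above background on wild-type 3 and knockout 1 and 2. Gbp2, a guanylate-binding protein, was the only member at an unadjusted p under 0.05, with a difference of -0.99 (SE 0.45). Over all genes 2.55% were lower at that threshold.

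Markers of fibroblasts were high on wild-type 1, 2 and 4 and on knockout 3, the arrays with high Mcpt1. Col1a1, the main collagen chain of fibroblasts, was at 4.40, 6.30, 0.21 and 4.6 in wild-type and at -0.02, 1.24 and 3.25 in knockout cells, and below background on every BMMC array. Over the 38 measured of 43 listed fibroblast markers the summed signal (log2) was 7.50, 9.07, 5.84 and 7.55 in wild-type and 5.88, 6.24 and 6.74 in knockout cells. Above background were 37, 37, 26 and 36 of them on the wild-type arrays and 21, 27 and 36 on the knockout arrays. Loxl2 alone of the 38 had separate groups, and 5 were at an unadjusted p under 0.05, all lower in knockout cells. Of all genes 1.01% were separate and lower, and 2.55% were lower at an unadjusted p under 0.05. The median difference was -1.80, with -2.11 within slide 2 and 1.89 within slide 4, and 3 and 35 of the 38 were higher on the knockout array of the 2 slides. In such a harvest fewer cells of a type and less RNA per cell cannot be told apart, and the part of fibroblast RNA in the differences of other genes was not tested.

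Other matrix genes and markers of other blood cells were read in the same way. Of 13 measured metalloproteinase genes and inhibitors, Adamts2, which processes collagen, was at 1.1, 3.25, -3.10 and 1.52 in wild-type and at -3.03, -2.32 and -0.20 in knockout cells. Macrophage markers, 13 measured of 17, had a summed signal (log2) of 3.49 to 3.80 in wild-type and 2.58 to 3.53 in knockout cells, and 9 to 11 and 7 to 11 were above background. C1qc, a complement chain made by macrophages, was at 0.53, -1.59, -2.86 and -1.85 against -5.49, -6.16 and -2.39, a difference of -3.24 (SE 1.12, adjusted p = 0.815), with 4 of 4 wild-type but 1 of 3 knockout arrays above background, so that its size rests on signals below background. Of the 13 measured macrophage markers 8 had a negative and 5 a positive difference. Itgax, an integrin chain of dendritic cells, was above background on 0 of 4 wild-type and 3 of 3 knockout arrays, at least 1.81-fold higher. Of 8 measured dendritic cell and MHC class II genes, 6 had a negative and 2 a positive difference. Of 2 measured neutrophil genes, S100a9 was above background on 0 of 7 arrays, and Mpo, myeloperoxidase, on 4 of 4 wild-type and 2 of 3 knockout arrays. The part of these cells in the differences of other genes was not tested.

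**Figure D3:**
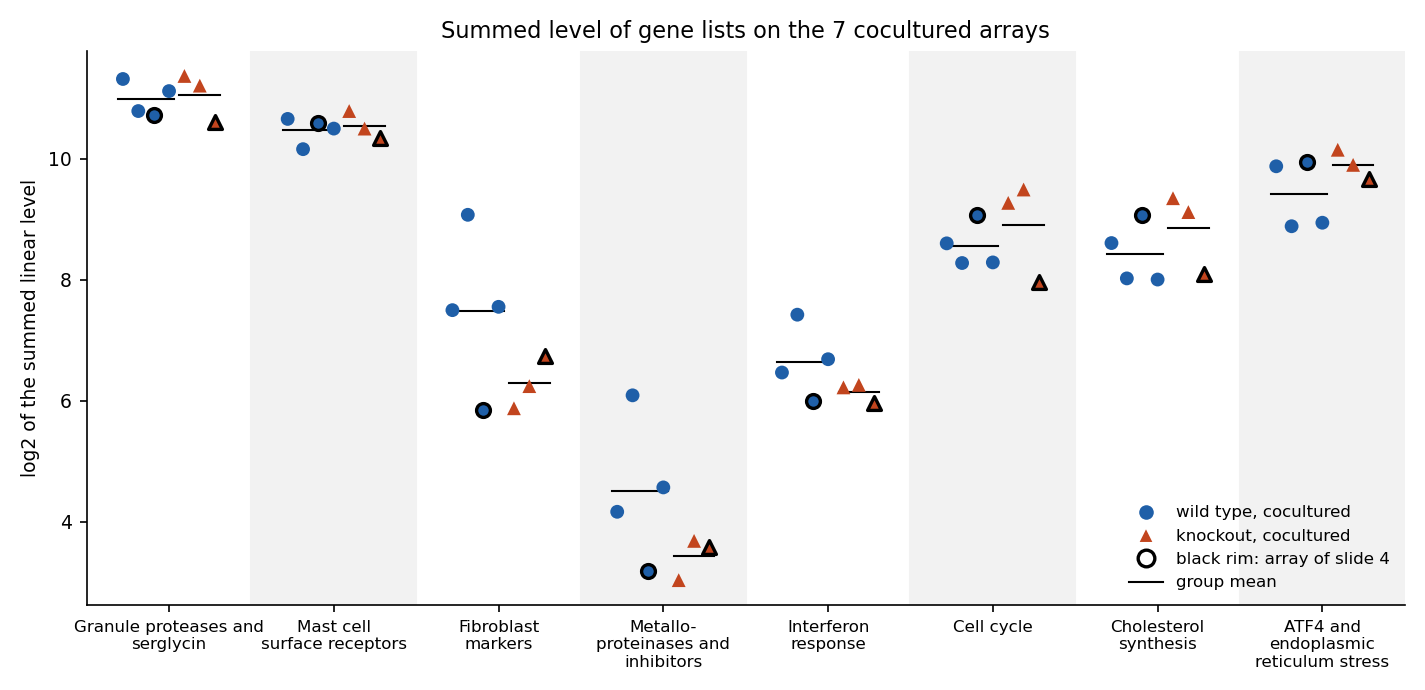
Summed levels of gene lists on each of the 7 cocultured arrays, on the scale of log2 of the summed linear level, with blue circles for wild-type, red triangles for knockout and a black rim for slide 4. Fibroblast markers are low on wild-type 3 and knockout 1 and 2, while cholesterol and cell cycle genes are high there.

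Within slides the genotype differences of most genes had opposite signs. Of 15826 genes read on all 4 arrays of slides 2 and 4, 12742 (80.5%) changed sign, with 6561 (41.5%) higher within slide 2 and lower within slide 4 and 6181 (39.1%) the reverse, and 1508 (9.53%) were higher and 1575 (9.95%) lower on the knockout array of both slides. The differences within the 2 slides correlated across genes at r = -0.740 (Spearman -0.757), a description of 4 arrays. A difference of 2-fold or more stood in 4871 genes (30.8%) within slide 2 and in 5713 (36.1%) within slide 4. It had the same sign in 63 genes that were higher (0.398%) and 53 that were lower (0.335%) in knockout cells, and opposite signs in 1649 (10.4%) and 1695 (10.7%).

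Genes with the largest differences of the same sign on both slides were few and mostly dim. Apart from Pla2g3 and Xist, they were Epsti1, which interferon induces, Oas1e, and Rgs13, a regulator of G protein signalling, on the high side. Oas1e was above background on 1 of 4 wild-type and 2 of 3 knockout arrays. Rgs13 was at 0.93, -1.11, -2.39 and -1.38 in wild-type and at -0.80, 3.04 and 0.45 in knockout cells, and Epsti1 at -4.13, -2.94, -3.73 and -2.73 against -2.97, 0.75 and -1.50. In both genes knockout 2 was highest and the groups overlapped. On the low side they were Fndc5, Creg2, Selenov, Cd59a and Edil3. Fndc5, a membrane protein with a fibronectin domain, was at -2.12, -2.08, -2.98 and -0.53 against -3.45, -5.85 and -6.45, above background on 4 of 4 and 0 of 3 arrays and at least 4.50-fold lower in knockout cells. Cd59a, an inhibitor of complement, was at 0.69, 1.72, 3.37 and -1.59 against 2.66, -1.83 and 1.24, with no order by label outside the 2 slides.

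The genes with the largest differences of opposite sign were found in both orders. Higher in knockout cells within slide 2 and lower within slide 4 were Grp, a neuropeptide, the chemokine Cxcl2, the early genes Egr4 and Fosb, and Il1b. Grp was at -6.48, -6.30, 1.37 and -5.96 in wild-type and at 0.71, -0.66 and -6.66 in knockout cells, above background on wild-type 3 and knockout 1 and 2 alone. Il1b was at -1.64, 3.03, 5.58 and 3.53 against 5.04, 3.71 and -1.44. Of the opposite order were Mcpt1, Iigp1, Ifit3, Ifit1 and Postn, a matrix protein of fibroblasts. Postn was at 1.26, 2.54, -6.35 and 0.75 against -5.66, -6.20 and 0.39, well above background on only 3 of 4 wild-type and 1 of 3 knockout arrays.

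**Figure D4:**
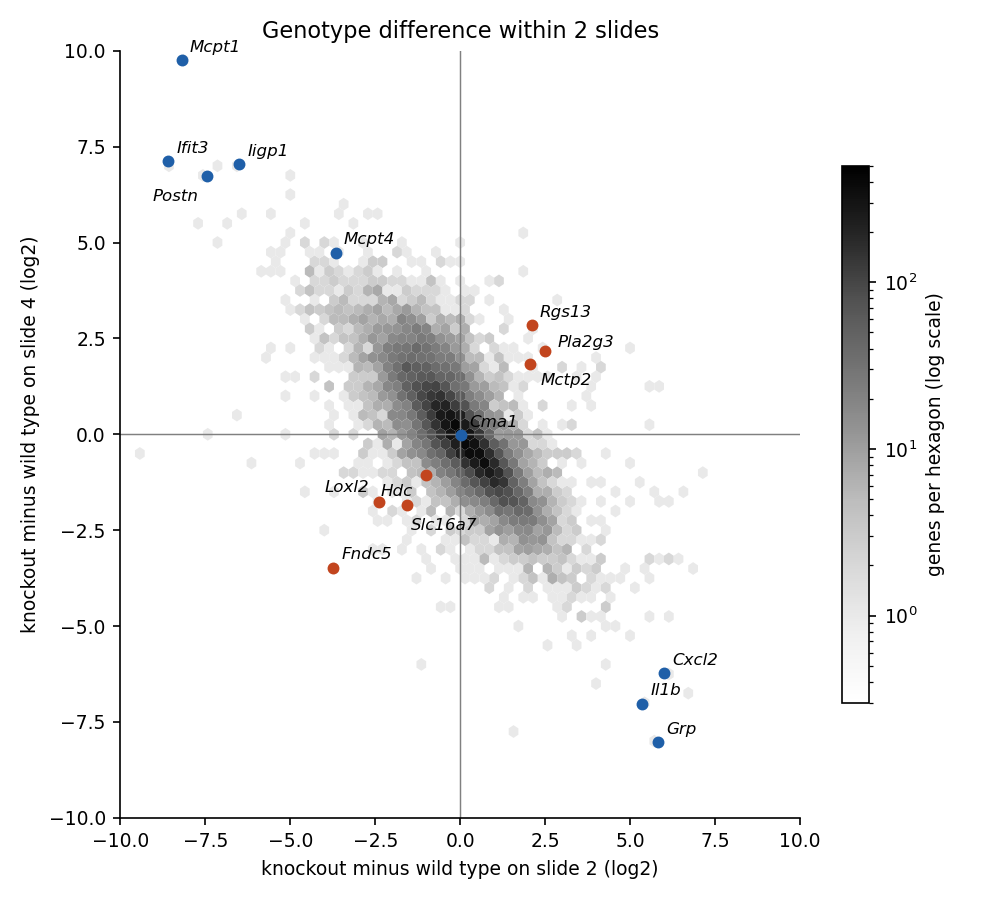
Knockout minus wild-type cocultured difference (log2) of each gene within slide 2, on the horizontal axis, and within slide 4, on the vertical axis, for 15826 genes, shaded by the number of genes, with named genes of the same sign in red and of opposite sign in blue. Most genes lie along a falling diagonal, and 80.5% have opposite signs on the 2 slides.

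Leaving out both cocultured arrays of slide 4 changed the comparison. This omission was chosen because the earlier results had shown these arrays to stand with the other label. With wild-type 1, 2 and 4 against knockout 1 and 2, limma called 3937 of 16016 genes (24.6%), 2385 higher (14.9%) and 1552 lower (9.69%). Because these arrays were left out for where their levels stood, the calls depend on that choice, their p-values do not hold as tests of genotype, and the values are given as a description of 5 arrays. The split was 4567 higher and 649 lower with median scaling, which moved the median of all genes to 0.60, 1490 and 1270 with quantile normalization, and 2628 and 1191 with normexp. The values below rest on 5 arrays of which the 3 wild-type ones had Y-linked signal and higher fibroblast markers. Of these arrays wild-type 2 and 4 were on slide 3, knockout 1 was on slide 1, and only slide 2 held both labels. The part of Y-linked signal, fibroblast RNA or slide in these calls was not tested.

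Under that omission granule and heparin genes were called in both directions, beside 14.9% of all genes called higher and 9.69% called lower. Of 19 protease list genes, 5 were called lower, Mcpt1 by -8.28 (SE 0.52, above background on 1 of 2 knockout arrays), Mcpt4 by -3.69 (SE 0.83), Cma2, Mcpt2 and Prss34, and 1 was called higher, the protease inhibitor Serpinb1a at 0.73 (SE 0.18). Of 29 heparin and chondroitin genes, 5 were called lower, among them Ndst2 at -1.29 (SE 0.29), and 1 higher, Csgalnact2 at 1.01 (SE 0.30), 20.7% of the list against 24.6% of all genes. The median of the protease list was 0.30 against 0.03 over all genes. It was -0.08 with quantile normalization and -0.47 with normexp, against 0.0007 and 0.24 over all genes. Mrgprb1 and Mrgprb2 were called lower at -3.81 (SE 0.67) and -3.46 (SE 0.74). Fcer1a and Ms4a2 were called higher at 1.08 (SE 0.20) and 1.45 (SE 0.29), and Il1rl1, the IL-33 receptor, at 0.87 (SE 0.20).

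Lipid mediator genes were also called in both directions. Of 14 measured phospholipase A2 genes, 3 were called higher, Pla2g4a at 1.53 (SE 0.31), Pla2g7 at 1.53 (SE 0.35) and Plaat3 at 1.90 (SE 0.58), and Pla2g2f lower at -1.11 (SE 0.28). Pla2g3 itself was not called, at 0.74. Of 12 prostanoid enzymes, Tbxas1, Akr1b3, Cbr1 and Ptges3 were called higher by 1.07 to 1.33, and Ptges lower at -1.92 (SE 0.63). These were 28.6% and 41.7% of the 2 lists, beside 24.6% of all genes called, 14.9% higher and 9.69% lower. Of 9 leukotriene genes, Ltc4s at 1.78 (SE 0.27) and Alox5ap at 0.87 (SE 0.24) were called higher and Ggt5, below background on both knockout arrays left, was called lower. The calls made up 33.3% of that list. Ddc was called higher at 3.96 (SE 0.62), while Hdc was not called, at -0.49.

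Other lists gave more calls in one direction. Higher were 18 of 35 cell cycle, 14 of 25 cholesterol, 12 of 30 ATF4 and endoplasmic reticulum stress and 8 of 20 oxidant defence genes, beside 1, 0, 0 and 1 lower, against 14.9% and 9.69% of all genes. Their medians were 1.11, 1.15, 1.04 and 0.98 against 0.03 over all genes, but 0.32, 0.56, 0.21 and 0.33 against 0.24 over all genes with normexp, where the ATF4 list lay below all genes. Lower were 26 of 38 fibroblast markers, beside 1 higher (Acta2), with a median of -3.12, and 5 of 13 metalloproteinase genes. Among cytokines 8 were called higher, with Il6 at 3.38 (SE 0.30), and 3 lower, with Cxcl12 at -5.63 (SE 0.68). Of the 20 genes named for separate groups on all 7 arrays, 14 were called, with Loxl2 at -3.05, Satb1 at -3.14 and Dock5 at 1.76, and with Lama4 and Hgf below background on both knockout arrays left. These genes were chosen on arrays that include the ones compared here, so their calls follow in part from that choice and are no separate support. Slc16a7, Dbn1, Mctp2, Cap1, Tulp3 and Mrps27 were not called. Without both arrays of slide 4, 1940 of 16016 genes were called in the difference between the cocultured and the BMMC genotype difference, 1334 upward and 606 downward. In BMMCs Ddx3y was above background on 1 of 3 wild-type and 1 of 4 knockout arrays, unlike in the cocultured arrays left. The part of Y-linked signal or slide in these calls was not tested.

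**Figure D5:**
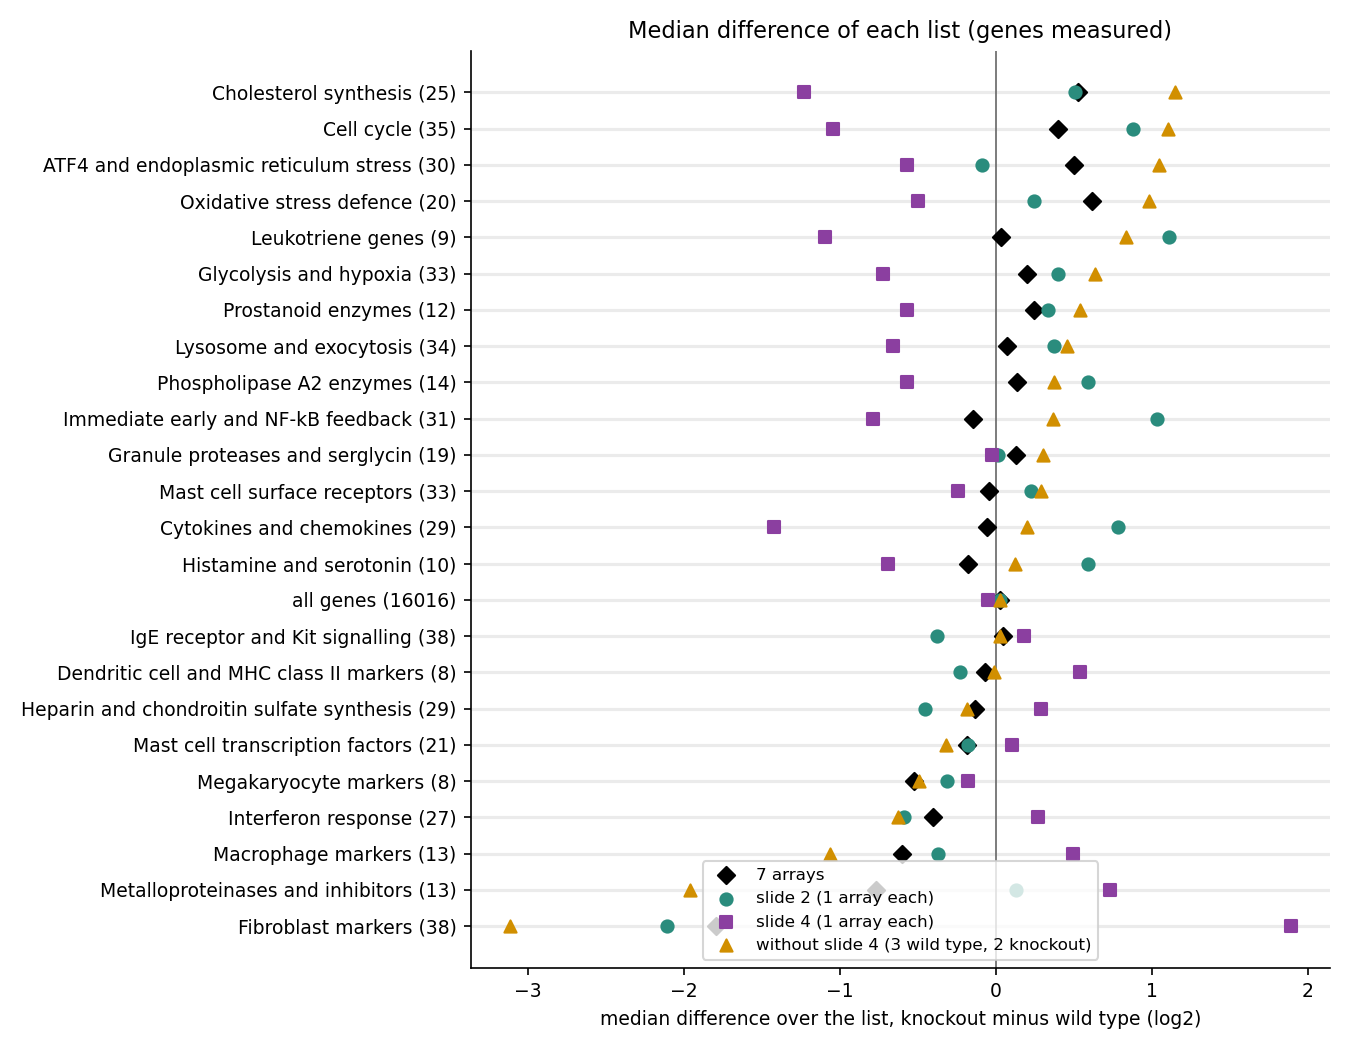
Median knockout minus wild-type difference (log2) of each gene list with at least 8 measured genes, with diamonds for all 7 cocultured arrays, circles for slide 2, squares for slide 4 and triangles for the arrays without slide 4. For fibroblast markers the 4 values are -1.80, -2.11, 1.89 and -3.12, and for cholesterol genes 0.52, 0.51, -1.23 and 1.15, so that slide 4 lies on the other side of 0 from the rest in both lists.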

How the data were processed

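Each of 14 RNA samples was hybridised to its own Agilent mouse array in 1 colour. Per the file headers and the submitters' processing notes, the intensity of each spot, as deposited, came from the scanner software Agilent Feature Extraction (9.5.1.1), run by the authors. Scaling between arrays is not part of them. An annotated table of the authors gives the same intensities and, as normalized values, these less a constant for each array. It served as an alternative, with values under 20 units set to 20. Its 14 call columns and the 14 value columns of a table of 24 selected probes, of which 8 headings held the values of another array, were not used, 28 per-sample columns in all.

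Each array's log2 processed signals had their 75th percentile subtracted. Outlier and control spots were left out and spots of a probe averaged. Of 41174 probes, 23625 were well above background on at least 3 of 14 arrays, and 32 of these lacked 2 values in some group. A gene was represented by its probe of highest mean, which gave 16016 genes, 13044 with a symbol in the RefSeq table (GRCm38.p6) and 280 with a missing value. Probe positions (mm9) were copied from the scanner files. On the linear scale the percentile was 69.9 to 153 units on the cocultured arrays.

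Groups were compared with limma 3.58.1 (R 4.3.3, data.table, version 1.17.8) in 1 fit of 4 groups over 14 arrays, checked on data simulated with known changes. Tests were two-sided, Benjamini-Hochberg adjustment of p covered all genes, and a gene was called at an adjusted p under 0.05. Unadjusted p-values come from the same fit. Every p in the text is limma's. For a gene that a whole group left below background, the fold is a lower bound, against the lowest signal well above background. Counts and figures were made with Python 3.11.15, pandas 2.3.3 and matplotlib 3.10.9.

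The genes named are Pla2g3 and the maturation genes, up to 10 in each direction of lowest p with groups that do not overlap, the leading members of each of 30 lists, the genes of the selected table, and those with the largest differences of equal or opposite sign over slides 2 and 4. Gene members of lists beyond these, and Abca13, Ddx3y and Col1a1, were chosen after their values were seen. Results on items withheld for evaluation are not reported here. The samples, lists, rules and alternatives were chosen with earlier results of these data known. The alternatives were other scalings, background correction, filters and probe choices, slide and replicate as blocks, the authors' values and the omission of arrays. The scaling alternatives of the omission of slide 4 were added after seeing the data.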

Additional observations from a re-analysis of the deposited data

Results flagged for a closer look

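Among 51 named genes read over the 4 wild-type cocultured arrays, 5 had 1 array far from the other 3, where chance gives about 1 in 20 for genes not chosen by their values. In 3 of the 5 it was wild-type 3, on slide 4. These 3 were named for opposite signs on slides 2 and 4, a choice that favours genes in which wild-type 3 departs from the others, so that rate does not apply to them. Grp, a neuropeptide, was at 1.37 there and between -6.48 and -5.96 on the others. Iigp1, an interferon-induced GTPase, was at -6.26 against 1.16 to 2.45, and the chymase Mcpt1 at -6.36 against 3.78 to 4.61. On wild-type 4, Tulp3, a ciliary transport protein, was at -0.91 against -0.54 to -0.48, and Vegfc, a lymphatic growth factor, at 4.97 against 5.02 on each of the others, a gap far smaller than the genotype difference of 0.56. Tulp3 and Vegfc were named for separate groups on these same arrays, so the rate of about 1 in 20 does not apply to them either. The cause of these values was not tested.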

How the results depend on the processing

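With all 7 cocultured arrays, limma called 0 genes under every alternative run, with 76 to 1773 genes at an unadjusted p under 0.05, and 0 with any 1 array left out, with 182 to 3234. Without both arrays of slide 4 it called 3937 genes, or 5216, 2760 and 3819 with median scaling, quantile normalization and normexp, the last 3 added after seeing the data, and 1940 genes in the difference between the cocultured and the BMMC genotype difference. The cause was not tested. In BMMCs 1 gene was called, with quantile normalization. Of 52 genes followed, 28 kept their direction in every planned refit other than the omission of slide 4, and 79 of 925 values under those refits had the other sign, none of them called. Without slide 4, 24 of the 52 passed, beside 24.6% of all genes. Many of the 52 were chosen by their values on these same arrays, so this count follows in part from that choice. For numbers 1 to 3 shared by knockout and wild-type arrays, deviations from group means correlated at -0.432, -0.151 and -0.547. Wild-type 3 and knockout 3 stood with the other label, which shapes these deviations. The values therefore cannot show whether equal numbers were prepared together. The replicate block gave 0 calls, with 76 genes at an unadjusted p under 0.05. The slide gave 0 calls as a fixed or random block. Dim probes limit the folds given as bounds.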
